A study of Mus musculus with 14 samples.

Results

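Sinusoidal endothelial cells of mouse bone marrow are described here as the cells of cluster 3 in the cluster numbers that the authors deposited for their marrow stromal cells. A cell was kept if at least 500 genes were detected in it and if under 10% of its unique molecular identifiers (UMIs, 1 per captured RNA molecule) were mitochondrial. By this rule 175 of 5381 kept stromal cells were sinusoidal, 120 of 3191 in the PyMT library and 55 of 2190 in the WT library. The study asked how a breast tumour acts at a distance on the bone marrow niche and on blood stem cells. It profiled marrow stromal cells by droplet 3' single-cell RNA sequencing in 1 library from a PyMT mouse genotype and in 1 library from a WT mouse genotype. PyMT is the usual name for mice with the polyoma middle T oncogene, a model of breast cancer. The labels give the genotype by that name alone, with no promoter, strain, age, sex, number of pooled animals or sort gate, and no allele or treatment that both groups share. With 1 library per genotype there is no replicate check, so no difference between the genotypes was tested. All intervals below are 95% intervals that cover counting error only: exact Clopper-Pearson for shares of cells, Newcombe for their differences, and exact conditional Poisson for ratios of UMIs. Genotype, animal and library cannot be told apart.

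Marrow sinusoids are wide, thin-walled vessels that drain the marrow and through which blood cells leave it. Their lining cells have open gaps, take up waste macromolecules from the blood with scavenger receptors, and carry selectins and other adhesion molecules for passing leukocytes. Together with perivascular LepR+ stromal cells, endothelial cells are a source of niche factors such as CXCL12 and stem cell factor (Kitl), which hold blood stem cells in place and keep them alive, and of other secreted signals that are called angiocrine.

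The cells carried the markers that the label calls for. Levels are given in CPM, the UMIs of a gene over all cells of a cluster in 1 library scaled to a common total of 1000000 UMIs, and they are compared between clusters and libraries for the same gene only. Stab2, a scavenger receptor for hyaluronan, stood at 1011 CPM in PyMT and 1073 CPM in WT sinusoidal cells, against 2.96 and 1.89 CPM in cluster 0, the LepR+ stromal cells. Fcgr2b, the inhibitory receptor for IgG that clears immune complexes, stood at 1562 CPM in PyMT and 1002 CPM in WT sinusoidal cells. Each of the 6 markers used to check the label had its highest level in cluster 3 in both libraries. Mrc1, the mannose receptor, had 1436 CPM in PyMT and 1381 CPM in WT sinusoidal cells, and Flt4, the receptor for VEGF-C, had 1088 and 688 CPM. Plvap, which forms the diaphragms of endothelial openings, had 1022 CPM in PyMT and 960.2 CPM in WT cells, and Sele, the adhesion molecule E-selectin, had 474 and 581 CPM. Summed, the 6 markers reached 6593 CPM in PyMT and 5684 CPM in WT sinusoidal cells, against 327 and 163 CPM in cluster 4, the other endothelial cluster, and 27.4 and 17.3 CPM in cluster 0. At least 1 of their UMIs was found in 119 of 120 PyMT and in 55 of 55 WT sinusoidal cells. All 15 general endothelial markers, among them Cdh5, Kdr and Pecam1, were present and summed to 8625 CPM in PyMT and 8209 CPM in WT cells. Since the clusters were drawn from the same genes, these levels describe the cluster and do not test it.

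**Figure D1:**
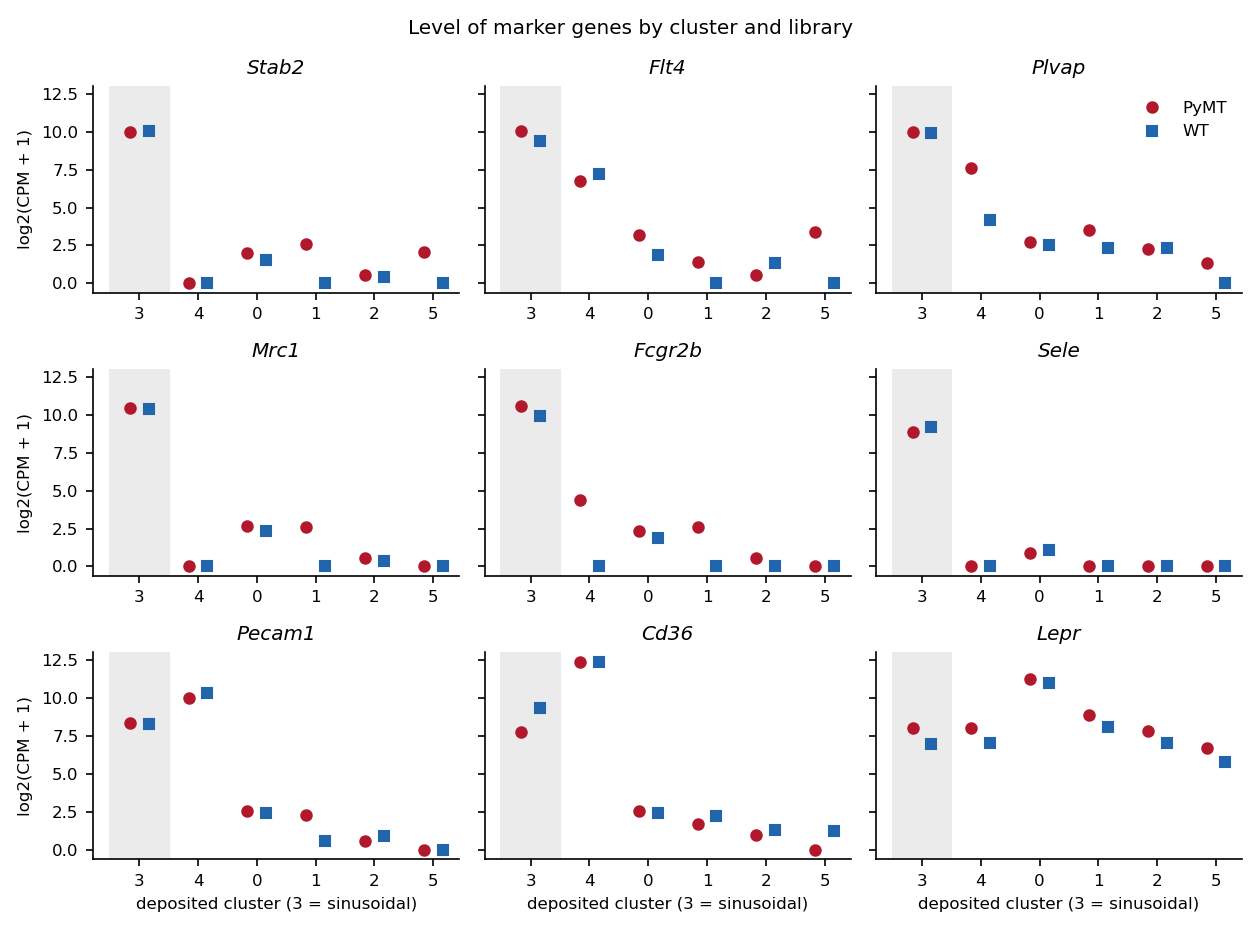
Level of 9 genes on a log2(CPM + 1) axis in each deposited cluster, with PyMT as red circles left of WT as blue squares and cluster 3 shaded. The 6 sinusoidal markers peak in cluster 3 in both libraries, Cd36 peaks in cluster 4 and Lepr in cluster 0.

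The sinusoidal cells held 453237 UMIs in PyMT and 168714 UMIs in WT, of 15542745 and 10222176 UMIs in all kept cells of each library. Their median depth was 3549.5 UMIs and 1700.5 genes per cell in PyMT, against 2750.0 UMIs and 1364 genes in WT, and the median mitochondrial share was 5.21% in PyMT and 5.94% in WT. PyMT cells were thus read more deeply than WT cells. Of the cells in the deposited cluster, 35 PyMT and 26 WT cells were left out. The kept cell with the fewest genes had 509 and the nearest one left out had 494, and the highest mitochondrial share kept was 9.98% against 10.1% for the nearest one left out. The libraries shared 2 cell barcodes, 0 of them in this cluster.

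Promoter sequences of 4 genes that carry the results below are shown, 3 for the identity of the cells and 1 (Fgf23) for the contrast of the libraries. They come from RefSeq on build GRCm38.p6, run 5' to 3' on the strand of the gene, and span 250 bases before to 50 bases after the gene start. Stab2 lies at chr10:87007893-87008192 (minus strand), Fcgr2b at chr1:170976022-170976321 (minus), Sele at chr1:164047984-164048283 (plus) and Fgf23 at chr6:127072652-127072951 (plus). Capitals mark every match, on either strand, to 5 motifs. They were the AP-1 element TGANTCA and the NF-kB consensus. The ETS element was GGAAGT. The GATA element was AGATAA. The nuclear receptor element, which NR2F factors can bind, was AGGTCA.
Stab2: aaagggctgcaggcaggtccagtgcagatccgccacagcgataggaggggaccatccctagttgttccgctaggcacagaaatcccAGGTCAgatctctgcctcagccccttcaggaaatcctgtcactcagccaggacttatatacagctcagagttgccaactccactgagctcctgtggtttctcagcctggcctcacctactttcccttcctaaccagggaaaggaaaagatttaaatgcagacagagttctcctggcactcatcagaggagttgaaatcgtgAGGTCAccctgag
Fcgr2b: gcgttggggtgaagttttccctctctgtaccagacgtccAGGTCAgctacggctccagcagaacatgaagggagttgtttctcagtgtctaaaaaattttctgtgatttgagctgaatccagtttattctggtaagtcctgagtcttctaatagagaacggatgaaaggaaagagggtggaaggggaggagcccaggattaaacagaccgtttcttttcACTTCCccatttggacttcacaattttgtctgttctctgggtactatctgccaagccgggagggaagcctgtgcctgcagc
Sele: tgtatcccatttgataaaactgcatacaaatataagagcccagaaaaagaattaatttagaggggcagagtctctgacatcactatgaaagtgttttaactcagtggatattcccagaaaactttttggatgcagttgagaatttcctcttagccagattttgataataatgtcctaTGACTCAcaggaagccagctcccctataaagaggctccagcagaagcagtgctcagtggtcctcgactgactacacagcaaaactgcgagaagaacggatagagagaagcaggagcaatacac
Fgf23: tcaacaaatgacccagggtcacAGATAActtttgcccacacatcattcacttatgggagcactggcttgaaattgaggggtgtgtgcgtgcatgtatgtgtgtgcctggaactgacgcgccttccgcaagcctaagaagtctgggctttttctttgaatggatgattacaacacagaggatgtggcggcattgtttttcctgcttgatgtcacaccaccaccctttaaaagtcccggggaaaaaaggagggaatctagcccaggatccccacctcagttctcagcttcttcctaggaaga
The Stab2 window held 2 matches to AGGTCA, the Fcgr2b window 1 to AGGTCA and 1 to ETS, the Sele window 1 to AP-1 and the Fgf23 window 1 to GATA. Over 32851 promoters of the same length, AGGTCA occurred in 16.3%, ETS in 23.8%, AP-1 in 7.81%, GATA in 11.2% and NF-kB in 4.51%. A match describes these letters only.

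Among 3086 genes with at least 10 UMIs in the sinusoidal cells of each library, 61 stood at least 4-fold and 180 at least 2-fold above the highest other cluster in both libraries. The 25 genes farthest above it, at 7.93-fold to 79.5-fold in the library where the gap was smaller, are described by role. A cluster at 0 was counted as 3 UMIs for these folds. Clearance genes were Mrc1, Fcgr2b and Stab2, beside Lgmn, a lysosomal protease, at 1033 CPM in PyMT and 723 CPM in WT, and Dnase1l3, a secreted DNase, at 300.1 and 581 CPM. Genes of blood clotting were Tfpi, the inhibitor of the tissue factor pathway, at 4285 CPM in PyMT and 3918 CPM in WT, and F8, clotting factor VIII, at 605 and 824 CPM. No UMI of F8 was found in cluster 4 of either library, where 3 UMIs correspond to 29.7 CPM in PyMT and 25.7 CPM in WT. Vwf, the platelet-binding partner of factor VIII, went the other way, with 2.21 CPM in PyMT and 0 UMIs in WT sinusoidal cells (3 UMIs are 17.8 CPM there), against 129 CPM in PyMT and 111 CPM in WT cells of cluster 4.

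Both partners of 1 ATP-sensitive potassium channel were among the 25 genes. Abcc9, its regulatory subunit SUR2, stood at 1341 CPM in PyMT and 1043 CPM in WT, and Kcnj8, its pore Kir6.1, at 446 and 314 CPM, with 0 UMIs of both in cluster 4. Receptors were Gpr182, a scavenging receptor for chemokines, at 466 CPM in PyMT and 421 CPM in WT, Insr, the insulin receptor, at 2131 and 522 CPM, and Ly96, the partner of TLR4, at 397 CPM in both. Tbc1d4, a Rab regulator that insulin signalling acts on, had 221 CPM in PyMT and 154 CPM in WT. Adhesion was represented by Sele and by Selp, P-selectin, at 346 and 492 CPM. The transcription factor was Nr2f2 (COUP-TFII), which sets venous identity, at 1121 CPM in PyMT and 711 CPM in WT. Secreted products were Selenop, the selenium carrier, at 4979.7 CPM in PyMT and 6467 CPM in WT, Lrg1, an acute-phase glycoprotein, at 1483 and 1067 CPM, and Lipg, endothelial lipase, at 457 and 344 CPM. The other genes were Clca3a1 (847 CPM in PyMT, 682 CPM in WT), Gpm6a (704 and 948 CPM), Ubd (697 and 599 CPM), Map4k5 (867 and 587 CPM), Fam167b (567 and 415 CPM) and Ttn (282 and 71.1 CPM). Of the 25 genes, 20 had a promoter in the table, with 25 windows, of which 40% held ETS, 16.0% AGGTCA, 8.0% AP-1, 8.0% NF-kB and 4.0% GATA.

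Set against the other endothelial cells, cluster 4 (61 PyMT and 95 WT cells, at a lower median depth of 1315 and 1116 UMIs per cell), the sinusoidal cells carried different uptake machinery. Of 2668 genes with enough UMIs, 9.33% stood at least 2-fold higher and 9.63% at least 2-fold lower in sinusoidal cells in both libraries. Among 20 scavenger and endocytic receptor genes, 10 were higher and 6 lower. The median log2 ratio was 1.2 in PyMT and 1.33 in WT, against 0.07 and -0.05 over all genes. Stab2, Mrc1 and Fcgr2b, among the 10 higher, are markers of the label, so their place there is no finding. Both the count of higher genes and the medians of this list include them and are raised by that choice. The same holds for the markers Sele, Plvap and Flt4, which count among the higher genes of lists below. Stab1, the sister receptor of Stab2, had 730.3 CPM in PyMT sinusoidal cells and 611 CPM in WT sinusoidal cells, against 109 and 120.0 CPM in cluster 4. Members of the list that serve clathrin uptake included, on the higher side, Dab2 at 635 and 676 CPM against 109 and 77.1 CPM, Ehd3 at 316 and 124 CPM against 9.90 and 17.1 CPM, and Cltc, the clathrin heavy chain, at 982 and 705 CPM against 238 and 351 CPM. Ehd4 and the adaptor subunit Ap2a1 had too few UMIs to be counted, with Ehd4 at 39.7 and 17.8 CPM against 89.1 and 94.3 CPM and Ap2a1 at 33.1 and 35.6 CPM against 49.5 and 17.1 CPM. On the lower side were the caveolar genes Cav1 and Cavin1 and the fatty acid receptor Cd36. Cav1 had 19.9 CPM in PyMT and 17.8 CPM in WT sinusoidal cells against 2555 and 2949 CPM in cluster 4, Cavin1 had 66.2 and 124 CPM against 1208 and 1380.0 CPM, and Cd36 had 216 and 652 CPM against 5436 and 5417 CPM.

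The shares of the next lists stand beside 9.33% higher and 9.63% lower over all genes. Lysosomal genes were higher in 4 of 17 (23.5%: Ctsb, Ctsl, Lgmn and Cd63) and lower in 1 (5.88%: Lipa). The protease Ctsl had 4263 CPM in PyMT and 4629 CPM in WT sinusoidal cells, against 446 and 429 CPM in cluster 4, and Ctsb had 1953 and 1185 CPM against 257 and 214 CPM. In the haemostasis list 6 of 10 were higher (60.0%: Tfpi, F8, F2r, Ptgs1, Pros1, Mmrn1) and 3 lower (30.0%). Of 18 adhesion and traffic genes, 6 were higher (33.3%: Sele, Selp, Icam1, Vcam1, Ackr1, Itga9) and 6 lower (33.3%: Cd34, Podxl, Pecam1, Jam2, Itga6, Ceacam1). Vcam1, the ligand of the integrin VLA-4 on blood stem cells, had 558 CPM in PyMT and 1891 CPM in WT sinusoidal cells, against 119 and 103 CPM in cluster 4. Ackr1, which displays chemokines on venules, had 404 and 652 CPM, with 0 UMIs in cluster 4. Among 16 genes of junctions and basement membrane, 2 were higher (Cldn5 and Plvap), a share of 12.5% that lay near the 9.33% of all genes. In the same list 7 were lower (43.8%), including the laminin chain Lama4 at 50.7 and 17.8 CPM against 406 and 420.0 CPM. Of 29 transcription factors 5 were higher (17.2%), among them Maf (944 CPM in PyMT and 800.2 CPM in WT, against 29.7 and 17.1 CPM), Nr2f2, Nr2f1 and Irf8. A further 6 were lower (20.7%), among them the flow-responsive Klf2 (969 and 509.7 CPM against 1941 and 2254 CPM). Gata4, known from liver sinusoids, was at 0 UMIs in both libraries, which allows up to 6.62 CPM in PyMT and 17.8 CPM in WT. Receptors were split evenly, with 6 of 31 higher (19.4%: Flt4, Il6st, Tgfbr2, Tnfrsf1a, Gpr182, Insr) and 6 lower (19.4%).

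Markers of most blood cells were at or near 0. Arterial and capillary markers were present at lower levels than in cluster 4, and stromal markers at lower levels than in cluster 0. Venous and lymphatic markers were higher than in cluster 4. The venous list summed to 2599 CPM in PyMT and 2495 CPM in WT, against 713 and 849 CPM in cluster 4. The lymphatic list summed to 201 CPM in 45 PyMT cells and 688 CPM in 24 WT cells, against 0 CPM in cluster 4 of both libraries. Of 10 macrophage markers 9 were at 0 in both libraries, including Adgre1, Csf1r and C1qa, and the list summed to 8.83 CPM in PyMT and 23.7 CPM in WT. All 5 T and NK cell markers were at 0. Erythroid markers summed to 17.7 CPM in PyMT and 189.7 CPM in WT. Of 15 arterial markers, Gja4, Gja5, Bmx, Hey1 and Stmn2 were at 0 in both, and the list summed to 1483 CPM in 106 PyMT cells and 765 CPM in 37 WT cells, against 4634 and 3574 CPM in cluster 4. Osteolineage markers summed to 538 CPM in PyMT and 533 CPM in WT, fibroblast markers to 214 and 658 CPM, and pericyte and smooth muscle markers to 227 and 148 CPM. Capillary markers summed to 2195 CPM in PyMT and 2602 CPM in WT, against 16951 and 18943 CPM in cluster 4. All 9 LepR+ stromal markers in PyMT and 8 of 9 in WT had a UMI, and they summed to 2577 CPM in PyMT and 1695 CPM in WT sinusoidal cells, against 28038 and 32815 CPM in cluster 0. These UMIs were unevenly spread, with a median of 2 and a highest count of 271 per cell in PyMT, and a median of 1 and a highest count of 51 in WT. In 8 PyMT and 6 WT cells, LepR+ stromal, macrophage or neutrophil markers outnumbered the endothelial ones. These cells held 79.3% of the LepR+ marker UMIs in PyMT and 47.6% in WT, as a description, since they were chosen by those UMIs. A wider set of mixed cells, defined after the data were seen, added cells with many fibroblast, bone or cartilage marker UMIs or any Ccl21a UMI, and held 80.1% of the LepR+ marker UMIs in 12 PyMT cells and 82.9% in 10 WT cells. In WT, 1 cell held all 43 UMIs of Ccl21a and all 17 of Lyve1, both lymphatic genes, and the fibroblast markers had up to 90 UMIs in 1 cell.

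Angiocrine genes are given with and without the wider set of mixed cells. Cxcl12 and Kitl are 2 of the 9 LepR+ markers that define that set, so their lower levels without it follow from the choice of cells and are no finding. Cxcl12, which retains blood stem cells, stood at 1664 CPM in PyMT and 1091 CPM in WT sinusoidal cells, and without the wider set of mixed cells at 337 and 134 CPM. Kitl, the stem cell factor, stood at 205 CPM in PyMT and 35.6 CPM in WT, and without those cells at 32.7 CPM in PyMT and at 0 UMIs in WT. As shares of the level in cluster 0, Cxcl12 stood at 8.94% in PyMT and 5.21% in WT with all cells, and at 1.81% and 0.642% without the wider set. Igfbp5, an IGF-binding protein that was not used to choose the cells, had 1313 CPM in PyMT and 539 CPM in WT, and 161 and 127 CPM without them. Vcam1, also not used to choose them, was at 38.6% of the cluster 0 level in PyMT and 94.4% in WT, and at 37.2% and 97.1% without them. Igfbp4 was at 88.9% in PyMT and 62.8% in WT, and at 89.7% and 60.0% without them, and Igf1 at 14.4% and 15.4%, and 12.3% and 11.7% without them. Against cluster 4, 2 of 16 angiocrine genes were higher in sinusoidal cells (Igfbp4, and Pros1, a ligand of TAM receptors), a share of 12.5% that lay near the 9.33% of all genes. Lower were 6 (37.5%, against 9.63%: Kitl, Cxcl12, Bmp6, Igfbp3, Pdgfb, Tnfsf10). How much of the stromal RNA came from doublets or free RNA was not tested.

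**Figure D2:**
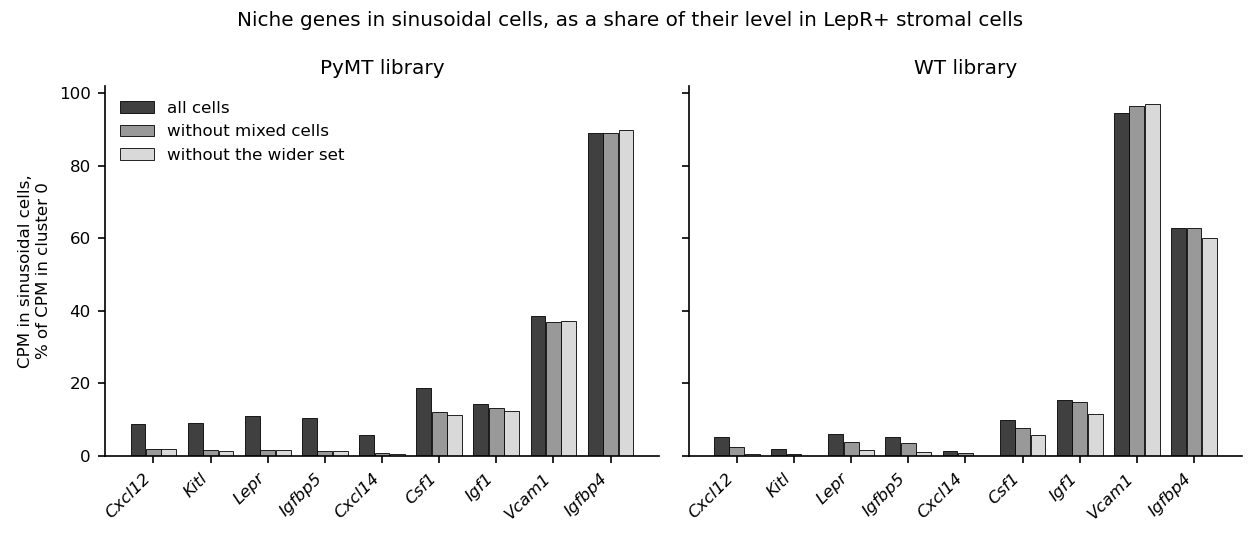
CPM of 9 niche genes in sinusoidal cells as a percent of their CPM in LepR+ stromal cells (cluster 0), PyMT library left and WT library right, for all cells (dark bars), without the mixed cells (grey) and without the wider set (light). Cxcl12, Kitl, Lepr and Igfbp5 drop to under 2% without the wider set, while Vcam1 and Igfbp4 keep their height; Lepr, Cxcl12, Kitl and other LepR+ markers were used to choose the cells left out.

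Sinusoidal cells made up 3.76% (3.13 to 4.48) of kept stromal cells in PyMT and 2.51% (1.90 to 3.26) in WT, a difference of 1.25 points (0.290 to 2.17). Of the cells of both endothelial clusters they made up 66.3% (58.9 to 73.1) in PyMT and 36.7% (29.0 to 44.9) in WT, a difference of 29.6 points (18.9 to 39.4). The sources used here do not state the sort gates, and a gate or the recovery of cells can set such shares. Since genes used to draw the clusters also differed between the libraries, the shares are a description.

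Between the libraries, 5069 genes had at least 20 UMIs summed over the sinusoidal cells of both. Of these, 3108 genes (61.3%) lay above a log2 ratio of 0, 12.9% (655 genes) stood at least 2-fold higher in PyMT and 3.51% (178 genes) stood at least 2-fold lower. With a counting interval that also excluded 0, the shares were 6.96% (353 genes) and 2.49% (126 genes). The median log2 ratio of PyMT over WT was 0.16 over all genes on the CPM scale, so single ratios are read against 0.16. Scaling by TMM or by DESeq2 size factors lowered all ratios by 0.05 and 0.06.

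Genes higher in PyMT are ranked here by the lower bound of the counting interval, and by it 2 hormones came first. By the ratio alone Mmp13 lay above Fgf23 and Dusp5 above Stc1. Fgf23, the phosphate-lowering hormone known as a product of bone cells (chr6:127072902-127081408, plus strand, protein-coding), had 166 UMIs in 36 of 120 PyMT cells and 3 UMIs in 1 of 55 WT cells. That was 366 CPM in PyMT and 17.8 CPM in WT, a ratio of 20.6-fold and a log2 ratio of 4.36 (2.79 to 6.66). It was hardly seen in clusters 0 and 4, with 3 UMIs in PyMT and 1 in WT in all of cluster 0 and 0 in cluster 4. Its level in the remaining clusters is not given here. Stc1, the glycoprotein hormone stanniocalcin-1 (chr14:69029238-69041804, plus strand), had 400 UMIs in 62 PyMT cells and 17 UMIs in 9 WT cells, or 883 CPM in PyMT and 101 CPM in WT, a log2 ratio of 3.13 (2.43 to 3.92). Both genes kept their ratios without the mixed cells, at 4.33 (2.76 to 6.62) for Fgf23 and 3.28 (2.54 to 4.13) for Stc1.

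Insr, the insulin receptor (chr8:3122061-3279617, minus strand), had 966 UMIs in 108 PyMT cells and 88 UMIs in 31 WT cells, or 2131 CPM in PyMT and 522 CPM in WT, a log2 ratio of 2.03 (1.71 to 2.36). In cluster 0 its level was 32.9 CPM in PyMT and 36.2 CPM in WT, and the log2 ratio in sinusoidal cells exceeded that in cluster 0 by 2.17 (1.73 to 2.61). In cluster 4, with 14 UMIs in PyMT and 4 in WT, the log2 ratio was 2.02, and the difference of 0.02 had an interval of -2.07 to 1.72. The ratio in sinusoidal cells thus exceeded that in LepR+ cells beyond counting error, and a difference from cluster 4 was not detectable at this depth. Igfbp2, an IGF-binding protein, had 344 CPM in 67 PyMT cells and 65.2 CPM in 7 WT cells, a log2 ratio of 2.40 (1.52 to 3.43).

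Genes of Notch signalling, named after their values were seen and not a list of their own, lay on the higher side to unlike degrees. Jag1 and Notch1 differed little, and Notch4 did not keep its side after thinning. Hes1, a repressor that Notch induces, had 1002 CPM in PyMT and 255 CPM in WT, a log2 ratio of 1.97 (1.52 to 2.46), which exceeded that in cluster 4 by 2.20 (1.48 to 2.95) and that in cluster 0 by 1.34 (0.89 to 1.83). The Notch ligand Dll4 had 201 CPM in 49 PyMT cells and 65.2 CPM in 9 WT cells, a log2 ratio of 1.62 (0.72 to 2.67). Dll1, another ligand, had 148 CPM in 40 PyMT cells and 29.6 CPM in 5 WT cells, a log2 ratio of 2.32 (1.02 to 3.99). The ligand Jag1 had 124 CPM in PyMT and 94.8 CPM in WT, and the receptor Notch1 256 and 237 CPM. The receptor Notch4 had a log2 ratio of 2.22 (0.21 to 5.34) on 25 PyMT and 2 WT UMIs, and -0.09 after each cell was thinned to 1500 UMIs.

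The rest of the 15 genes farthest on the higher side were of several kinds. Dusp5, a phosphatase that ERK signalling induces, had 87 UMIs in PyMT and 3 in WT, a log2 ratio of 3.43 (1.84 to 5.74). Skil, a co-repressor of SMADs, had 236 CPM in PyMT and 35.6 CPM in WT, Odc1, the first enzyme of polyamine synthesis, 344 and 65.2 CPM, and the membrane proteins Slc12a2 (the cotransporter NKCC1) and Tm4sf1 631 and 154 CPM, and 710.4 and 189.7 CPM. Plcb1, a phospholipase C, had 27 UMIs in PyMT and 0 in WT. With 3 UMIs taken as the WT limit, its PyMT level was 3.35-fold above that limit, with the counting error of the PyMT UMIs left out. Kcnj2, an inward rectifier potassium channel, likewise had 27 UMIs in PyMT, 11 of them in 1 cell, and 0 in WT. For 3 of these 15 genes, of which Kitl helps to define the mixed cells, the UMIs lay in large part in mixed cells. Mmp13, a collagenase that was found in 66.4% of PyMT cells of cluster 0, had 77 UMIs in PyMT and 1 in WT, and its log2 ratio without the mixed cells was 2.36 (-0.38 to 7.77). Runx1 had 63 UMIs in PyMT and 3 in WT, with a log2 ratio of 1.39 (-0.36 to 3.79) without those cells, and Kitl had 93 and 6 UMIs, with 1.56 (-0.54 to 4.74) without them.

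On the lower side, Vcam1 was the most abundant adhesion gene concerned (chr3:116109949-116129688, minus strand). It had 253 UMIs in 57 of 120 PyMT cells and 319 UMIs in 42 of 55 WT cells, or 558 CPM in PyMT and 1891 CPM in WT, a log2 ratio of -1.76 (-2.0 to -1.52). In LepR+ stromal cells it stood at 1445 CPM in PyMT and 2002 CPM in WT, and the log2 ratio in sinusoidal cells differed from that by -1.29 (-1.54 to -1.04). In cluster 4 the log2 ratio was 0.21 on 12 UMIs in each library, a difference of -1.97 (-3.27 to -0.66). Without the mixed cells it was -1.86 (-2.12 to -1.60), as large as with them. Aqp1, the water channel aquaporin-1 (chr6:55336432-55348555, plus strand), had 81.6 CPM in 16 PyMT cells and 575 CPM in 31 WT cells, a log2 ratio of -2.82 (-3.40 to -2.26). Its level in cluster 4 was 2980.3 CPM in PyMT and 4406 CPM in WT. Cd36, also high in cluster 4, had a log2 ratio of -1.59 (-2.0 to -1.19) in sinusoidal cells. Other capillary markers went both ways in sinusoidal cells. Gpihbp1 had 174 CPM in PyMT and 255 CPM in WT, and Cd300lg 157 and 320.1 CPM. Flt1 had 944 and 492 CPM, and Aplnr 339.8 and 172 CPM. Tinagl1, a matrix protein, had 17.7 CPM in PyMT and 148 CPM in WT, and Pdzd2, a PDZ-domain protein, 33.1 and 189.7 CPM.

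Several of the lower genes are known from other cell types or overlap ribosomal RNA, and where their UMIs came from was not tested. Ccl21a, with 0 UMIs in PyMT and 43 in WT, came from 1 WT cell. In WT 25 of 28 UMIs of S100a4, 18 of 18 of Comp, 22 of 23 of Fmod and 33 of 35 of Thbs4, all known from fibroblasts or matrix, sat in a single cell each, and 14 of 29 of Crip1. Hbb-bs, a globin chain, had 2 UMIs in PyMT and 18 in WT, spread over 8 WT cells, beside the erythroid sums above. Cfd, the adipocyte protease adipsin, had 0 UMIs in PyMT, which allows up to 6.62 CPM, and 36 UMIs in 8 WT cells. Against that limit the WT level was 32.2-fold higher, with the counting error of the WT UMIs left out. Gm42418, which overlaps a ribosomal RNA repeat, took 2.54% of sinusoidal UMIs in PyMT and 8.37% in WT. It was lower in PyMT in every cluster, by a log2 ratio between -1.04 and -1.72, as were AY036118 and Lars2.

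**Figure D3:**
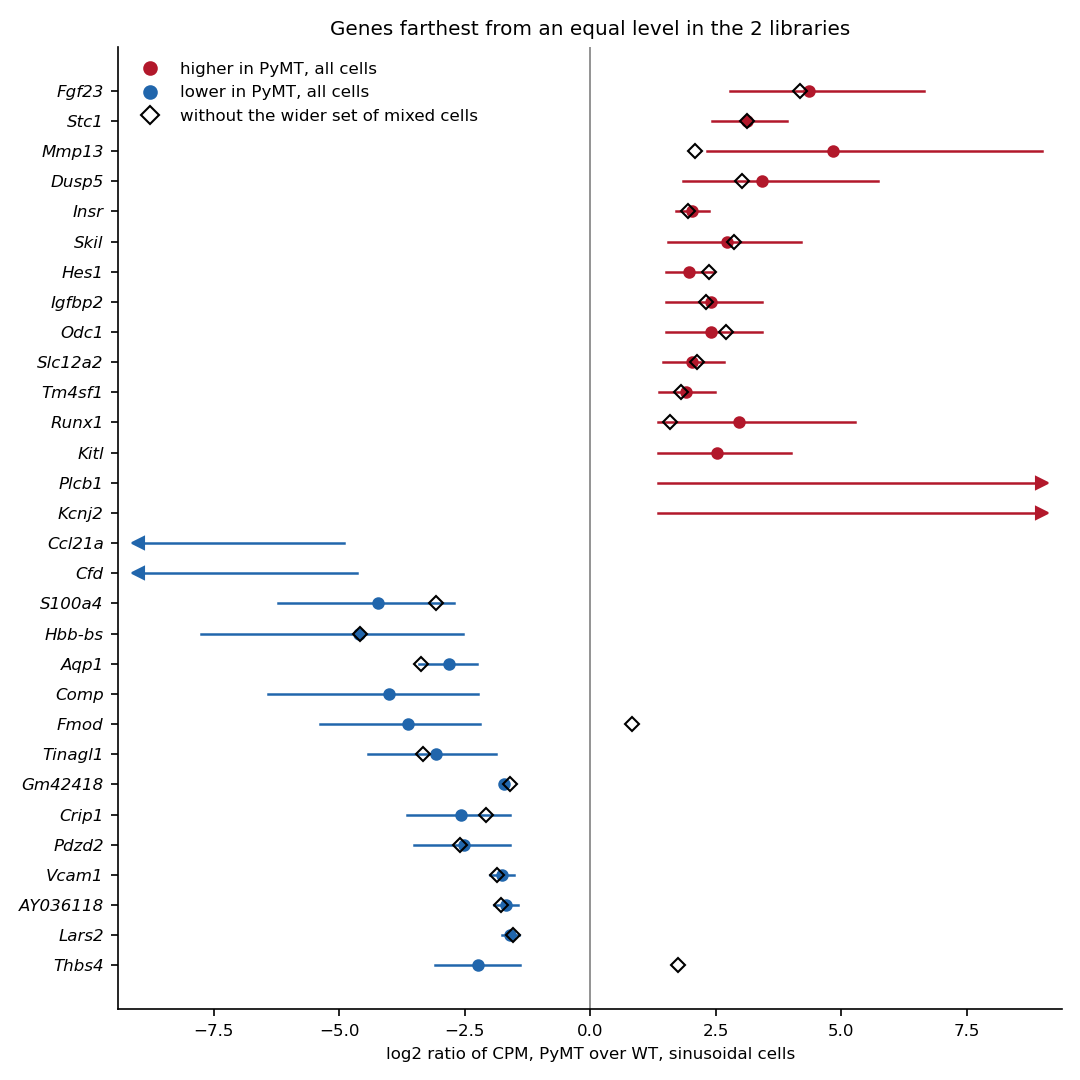
Log2 ratio of CPM, PyMT over WT, in sinusoidal cells for the 15 genes farthest above and the 15 farthest below an equal level (filled circles, with 95% Poisson intervals of counting error, arrows where 1 library had 0 UMIs and lines cut at the edge of the axis). Open diamonds give the ratio without the wider set of mixed cells: they stay near the circles for Fgf23, Stc1, Insr, Vcam1 and Aqp1, and cross 0 for Fmod and Thbs4.

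Scavenger receptors differed little between the libraries as a group. Of 22 such genes measured, 13 lay above 0 (59.1%, against 61.3% of all genes) and 9 below. Their median log2 ratio was 0.11 against 0.16 over all genes. The 4 at least 2-fold higher (18.2%) and 1 at least 2-fold lower (4.55%) lay near the 12.9% and 3.51% of all genes. Stab2 had a log2 ratio of -0.09 (-0.34 to 0.17), Mrc1 0.06 (-0.16 to 0.28) and Stab1 0.26 (-0.06 to 0.59), so a 2-fold difference lay outside these intervals. Fcgr2b had 0.64 (0.40 to 0.89), Ehd3 1.34 (0.68 to 2.08) and Clec1a 1.37 (0.52 to 2.33). Lysosomal genes were balanced, with 10 of 20 above 0, 0 at 2-fold and a median of 0.01. Haemostasis genes had a median of 0.13, with Tfpi at 0.13 (0.00 to 0.26), F8 at -0.45 (-0.75 to -0.14) and the thrombin receptor F2r at 0.99 (0.34 to 1.70).

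Receptors lay above 0 in 33 of 39 genes (84.6%, against 61.3% of all genes), with a median of 0.36. The 7 receptors at least 2-fold higher (17.9%) lay near the 12.9% of all genes, and 0 were at least 2-fold lower. Flt1, the VEGF receptor 1, had 944 CPM in PyMT and 492 CPM in WT, a log2 ratio of 0.94 (0.60 to 1.30), Flt4 0.66 (0.37 to 0.97), and Calcrl, the receptor for adrenomedullin, 1.10 (0.61 to 1.62). Csf2rb, the shared chain of the IL-3 and GM-CSF receptors, had 150 CPM in PyMT and 65.2 CPM in WT. Il6st, the gp130 chain of IL-6 family receptors, lay on the other side with 1706 CPM in PyMT and 2655 CPM in WT, a log2 ratio of -0.64 (-0.81 to -0.47), which differed by -0.71 from that in cluster 0 and by -1.35 from that in cluster 4. Junction and basement membrane genes lay above 0 in 14 of 17 (82.4%, against 61.3% of all genes), with 5 at least 2-fold higher (29.4%, against 12.9%), 0 at least 2-fold lower and a median of 0.37. The basement membrane protein nidogen-1 (Nid1) had 735 CPM in PyMT and 290.4 CPM in WT, a log2 ratio of 1.34 (0.90 to 1.80), and the gap junction protein Gja1 907 and 362 CPM, a log2 ratio of 1.33 (0.94 to 1.74).

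Transcription factors lay above 0 in 26 of 34 genes (76.5%, against 61.3% of all genes), with a median of 0.32. The 6 at least 2-fold higher (17.6%) and the 2 at least 2-fold lower (5.88%) lay near the 12.9% and 3.51% of all genes. Those past 2-fold included Sox7 (83.8 CPM in PyMT, 11.9 CPM in WT), Tal1 (94.9 and 23.7 CPM), Ets2 (494 and 243 CPM), Id1 (399 and 184 CPM), Bcl6b (126 and 47.4 CPM) and Hes1 on the higher side, and Nr2f1 (59.6 and 130.4 CPM) and Meis2 (28.7 and 71.1 CPM) on the lower. Adhesion genes had a median of 0.50, with 12 of 18 above 0 (66.7%, against 61.3% of all genes). The selectins and Ackr1 were among those below: Selp had a log2 ratio of -0.51 (-0.90 to -0.10), Ackr1 -0.69 (-1.04 to -0.34) and Sele -0.29 (-0.64 to 0.07), while Icam1, the ligand of leukocyte integrins, had 0.64 (0.20 to 1.10). In the angiocrine list 15 of 26 genes lay above 0 (57.7%, against 61.3% of all genes). At least 2-fold higher were 7 (26.9%, against 12.9%) and at least 2-fold lower 2 (7.69%, against 3.51%). The median of the list was 0.43, and -0.25 without the mixed cells, which Cxcl12 and Kitl of this list help to define. Past 2-fold on the higher side were Kitl, Igfbp5, Igfbp2, Dll4, Dll1, Igfbp3 (132 CPM in PyMT, 17.8 CPM in WT) and Cxcl1 (77.2 and 5.93 CPM), the last 2 on few WT UMIs. On the lower side were Cxcl9, a ligand of the receptor CXCR3 on T cells, at 46.3 and 196 CPM, and Hgf at 33.1 and 83.0 CPM. Short of 2-fold were Tgfb1 at 439 CPM in PyMT and 231 CPM in WT, and Igfbp7 at 1116 and 1606 CPM.

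Immediate-early genes, which stress and growth signals induce within minutes, lay above 0 in 26 of 28 genes (92.9%, against 61.3% of all genes). At least 2-fold higher were 6 (21.4%, against 12.9% of all genes) and at least 2-fold lower 0 (against 3.51%). Fos stood at 7859 CPM in PyMT and 3384 CPM in WT, and Atf3 at 209.6 and 47.4 CPM. Their median of 0.79 had a counterpart in other clusters, with 0.81 in cluster 0, 1.06 in cluster 1, 1.05 in cluster 2 and 0.35 in cluster 4. Genes of NF-kB signalling had a median of 0.64, with 16 of 20 above 0 (80.0%). The inhibitor Nfkbia, itself a target, had 659.7 CPM in PyMT and 267 CPM in WT, and Vcam1, which is in this list too, was its 1 member at least 2-fold lower. STAT3 and acute-phase genes also had 0.64, with 16 of 17 above 0 (94.1%, against 61.3% of all genes) and Il6st the one below. At least 2-fold higher were 4 (23.5%, against 12.9%). Their median was 0.69 in cluster 0, 0.44 in cluster 1, 0.71 in cluster 2, 0.62 in cluster 4 and 0.66 in cluster 5. Such genes also respond to tissue dissociation and handling, and their part in the result was not tested. MHC class I genes had a median of -0.38, with 9 of 10 below 0 and 1 above (10.0%, against 61.3% of all genes). H2-T23 was the 1 member at least 2-fold lower (10.0%, against 3.51%). The median of this list was -0.26 in cluster 0, 0.21 in cluster 1, 0.10 in cluster 2, -0.33 in cluster 4 and -0.23 in cluster 5. H2-D1 had 746 CPM in PyMT and 1185 CPM in WT, a log2 ratio of -0.67 (-0.93 to -0.41), which differed by -0.17 from that in cluster 0 (interval -0.43 to 0.09).

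**Figure D4:**
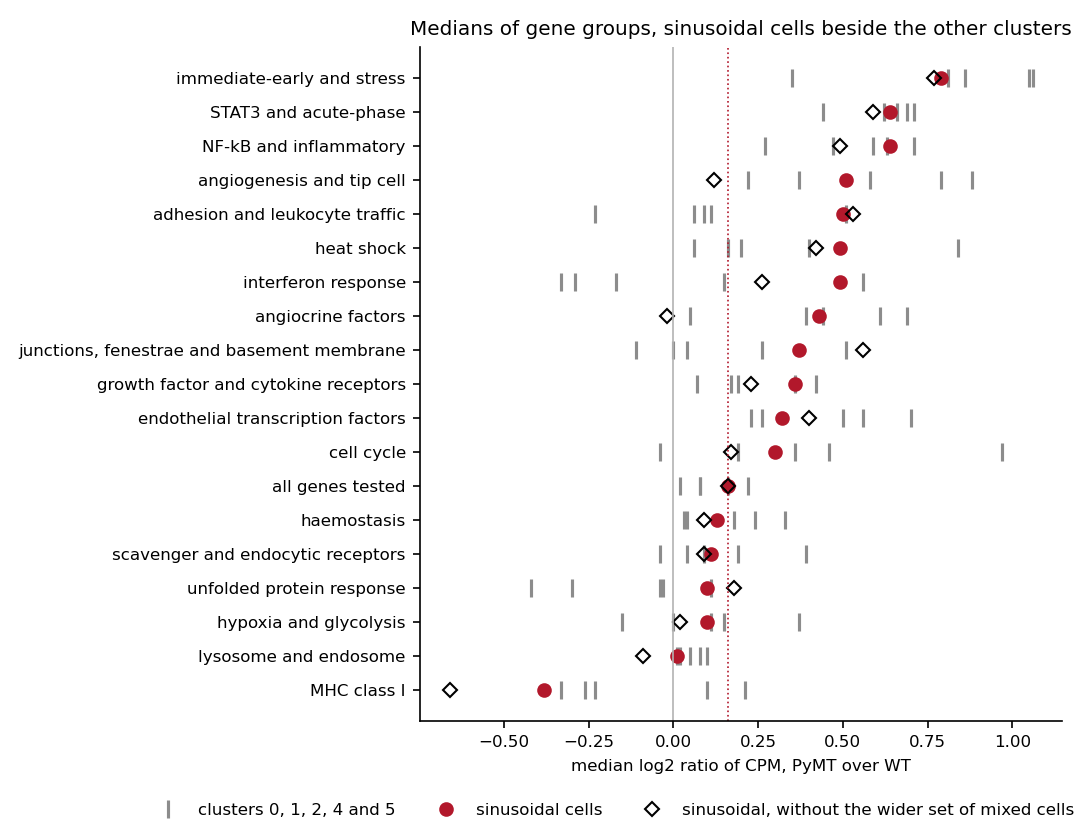
Median log2 ratio of CPM, PyMT over WT, for each gene list in sinusoidal cells (filled circles), without the wider set of mixed cells (open diamonds) and in clusters 0, 1, 2, 4 and 5 (grey ticks). The dotted line marks the median of all genes, 0.16; the immediate-early list is highest at 0.79 and MHC class I lowest at -0.38.

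The contrasts also showed in counts of cells. To take out depth, each cell was thinned to 1500 UMIs, which kept 102 PyMT and 48 WT sinusoidal cells and left out 18 and 7. A Fgf23 UMI was then found in 29.4% (20.8 to 39.3) of PyMT and 2.08% (0.0527 to 11.1) of WT cells, against 30.0% and 1.82% before thinning. Insr was found in 84.3% (75.8 to 90.8) of PyMT and 41.7% (27.6 to 56.8) of WT cells, against 90.0% and 56.4% before. Stc1 was found in 43.1% (33.4 to 53.3) of PyMT and 14.6% (6.07 to 27.8) of WT cells, and Igfbp2 in 34.3% (25.2 to 44.4) and 4.17% (0.509 to 14.3), against 51.7% and 16.4%, and 55.8% and 12.7%, before. Vcam1 ran the other way at 31.4% (22.5 to 41.3) of PyMT and 79.2% (65.0 to 89.5) of WT cells (47.5% and 76.4% before), and Aqp1 at 7.84% (3.45 to 14.9) and 43.8% (29.5 to 58.8) (13.3% and 56.4% before). These 6 genes lie at the ends of the same contrast, so their shares describe it and add no support. For other such genes the intervals of the libraries overlapped, as for Hes1 at 50% (39.9 to 60.1) of PyMT and 27.1% (15.3 to 41.8) of WT cells, for Tm4sf1 at 51.0% (40.9 to 61.0) and 31.2% (18.7 to 46.3), and for Dusp5, Dll4 and Dll1. Stab2 was found at 73.5% (63.9 to 81.8) in PyMT and 77.1% (62.7 to 88.0) in WT, against 85.0% and 85.5% before. As a measure of free RNA, LepR+ stromal cells, which should lack these genes, had a Stab2 UMI in 0.463% of PyMT and 0.218% of WT cells after thinning, Fgf23 in 0.0463% and 0%, and Stc1 in 0.740% and 0.654%. Their median depth before thinning was 4422 UMIs in PyMT and 3591 in WT.

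**Figure D5:**
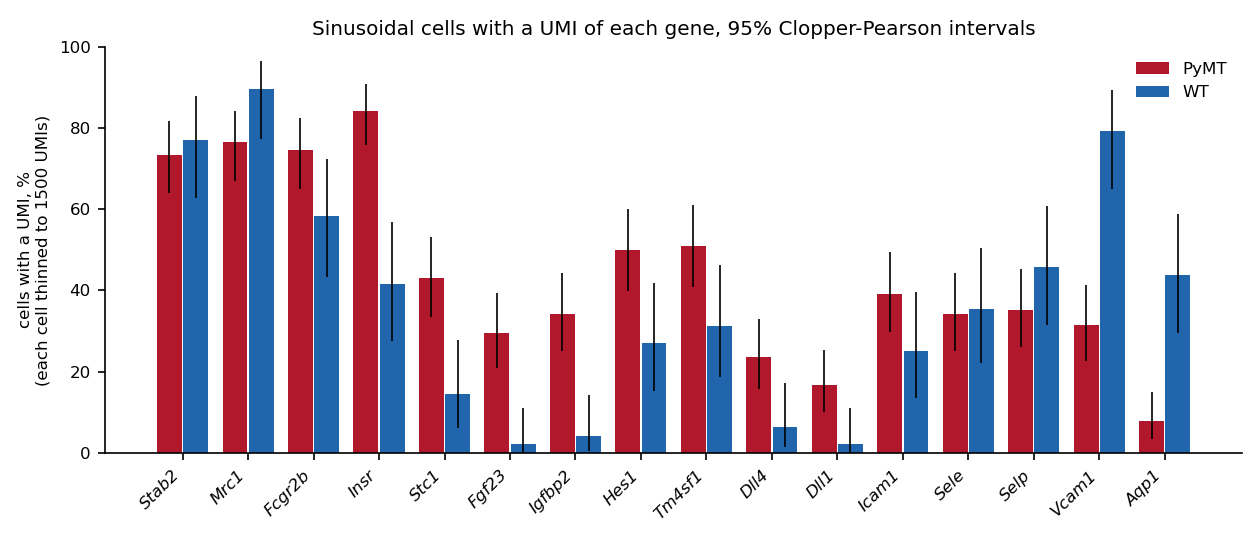
Percent of sinusoidal cells with at least 1 UMI of each gene after each cell was thinned to 1500 UMIs, PyMT (red, 102 cells) left of WT (blue, 48 cells), with 95% Clopper-Pearson intervals. Insr, Stc1, Fgf23 and Igfbp2 are more often found in PyMT cells, Vcam1 and Aqp1 more often in WT cells, and Stab2 about equally.

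Within the PyMT library, at least 1 UMI of Fgf23 was found in 36 of the 120 sinusoidal cells. These 36 were read more deeply, at a median of 4893 UMIs against 2729 UMIs in the 84 others, so shares of cells with a gene are not comparable and levels are given. Sele had 619 CPM in the cells with Fgf23 and 377 CPM in those without, Ackr1 587 and 281 CPM, Selp 444 and 281 CPM, and Vcam1 674 and 480.0 CPM. Insr had 1924 and 2271 CPM, Stc1 817 and 927 CPM, Stab2 1140.2 and 923 CPM, and Mrc1 1447 and 1429 CPM. Of the other genes looked at, Gja1 had 773 CPM with Fgf23 and 997 CPM without, Hes1 959 and 1030.2 CPM, and Dll4 197 and 203 CPM. Nid1 had 778 and 705 CPM, Fos 8431 and 7474 CPM, Igfbp2 362 and 332 CPM, and Dll1 159 and 140.3 CPM. Cells with Fgf23 thus had higher levels of Sele, Ackr1, Selp and Vcam1 and similar levels of Insr and Stc1. No counting interval was taken, and this describes cells of 1 library.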

How the data were processed

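The deposited stromal tables hold raw counts of UMIs (whole numbers) for each of 32285 genes in each cell. A metadata table that the authors deposited gives each cell's mitochondrial fraction and the cluster it was put in after integration. Per the submitters' processing notes, Cell Ranger 6.0.0 and mouse build mm10 were used. The labels differ on the version of the droplet chemistry. All 6071 deposited stromal cells were read and 5381 were kept (at least 500 genes, under 10% mitochondrial UMIs). Bulk and blood progenitor tables were not analysed here, and 0 columns of values were left without a sample. UMIs were summed over the cells of a cluster in each library and given as CPM, for genes with at least 20 UMIs over both sums. With 1 library per genotype no count model was fitted, so edgeR 4.0.16 and DESeq2 1.42.0 (R 4.3.3) gave scaling factors only. Ratios have exact conditional Poisson intervals and shares Clopper-Pearson intervals at 95%, and UMIs that share a cell are not independent. Python 3.11.15, scanpy 1.11.5, numpy 2.4.6, scipy 1.17.1 and pandas 2.3.3 were used. The intervals and calls were tried on simulated Poisson counts only. Such counts lack the uneven spread of UMIs over cells, so the trial cannot show how the calls hold in these data. Scrublet marked 26 of 5381 cells (5 in PyMT, 21 in WT), which is too few to rely on. Doublets were therefore kept, and cells with other types' markers were left out as an alternative. Named genes were the 25 farthest above every other cluster with at least 10 UMIs in each library, the 15 on each side with the interval farthest from 0 among genes past 2-fold, and members of the gene lists. Members and lists were chosen with earlier results of these data known. Gene positions are from GENCODE vM21 on GRCm38.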

Additional observations from a re-analysis of the deposited data

How the results depend on the processing

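No paired analysis was possible because each genotype has 1 stromal library. The excess of sinusoidal cells in PyMT stayed between 1.08 and 1.33 points, and 6 of 6 markers stayed highest in cluster 3, under every filter on cells tried. Of 361 genes followed, 242 kept their direction and moved within their interval under all 11 alternatives, and 7 reversed under some. The 15 named higher genes stayed past 2-fold in all 6 settings that changed the cells, and 11 to 15 of the 15 lower ones. Log2 ratios ranged from 3.78 to 4.33 for Fgf23, 2.87 to 3.53 for Stc1, 1.82 to 2.13 for Insr and -2.21 to -1.75 for Vcam1.

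Counts of genes past 2-fold depend on depth, on the minimum and on the total used for scaling. With Gm42418, AY036118 and Lars2 left out of the total, 541 genes were higher and 212 lower, against 655 and 178 with them. Thinning to 1500 UMIs gave 333 higher and 84 lower, and leaving out the highest cell of each gene gave 114 lower. A minimum of 10 UMIs gave 1194 and 445, of 50 UMIs 222 and 40, and of 1 UMI 3873 and 2075. The interval rule gave 353 higher, and a 1.5-fold rule 1381 and 535.

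The cause of the following reversals was not tested. The angiocrine median turned to -0.25 without the mixed cells, -0.02 without the wider set, -0.18 after thinning and -0.07 as a mean per cell. Without the mixed cells Lepr was at -0.93 and Igfbp5 at -1.16, and without the wider set Ebf3 was at -0.03, Fmod at 0.83 and Thbs4 at 1.76. Without Scrublet's doublets (1 cell per library) Fmod was at 0.86, Thbs4 at 1.78 and Dcn at 0.17, and without the highest cell Fmod was at 0.11 and Dcn at 0.04. After thinning Notch4 was at -0.09. The 4 genes at 0 in a library (Plcb1, Kcnj2, Ccl21a and Cfd) and 53 values with a library at 0 under an alternative gave no ratio. At 55 WT cells, a gene with 0 UMIs can still reach 17.8 CPM.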

Other observations

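Among the other lists, hypoxia and glycolysis genes had a median log2 ratio of 0.10 in sinusoidal cells, with 10 of 18 above 0 (55.6%). Genes of the unfolded protein response also had 0.10, with 9 of 15 above 0 (60.0%). Both shares lay near the 61.3% of all genes. Aldoa, a glycolytic enzyme, had 115 CPM in PyMT and 202 CPM in WT. Of 6 cell cycle genes measured, 4 lay above 0 (66.7%, against 61.3% of all genes). Pcna, the sliding clamp of DNA replication, had 236 CPM in 52 PyMT cells and 65.2 CPM in 8 WT cells, a log2 ratio of 1.86 (0.96 to 2.90), while Hmgb2 had 121 and 154 CPM. Against a median of 0.16 over all genes, heat shock genes had 0.49 in sinusoidal cells and 0.84 in LepR+ stromal cells. In sinusoidal cells 4 of 12 were at least 2-fold higher (33.3%, against 12.9% of all genes). Hsp90aa1, a chaperone, had 774 CPM in PyMT and 326 CPM in WT. Interferon response genes had a median of 0.49, and 0.26 without the wider set of mixed cells. Of 21 such genes, 15 lay above 0 (71.4%, against 61.3% of all genes) and 5 were at least 2-fold higher (23.8%, against 12.9%). The counting interval lay above 0 for 2 and below 0 for 2. The median was -0.17 in LepR+ stromal cells, 0.56 in cluster 1, 0.15 in cluster 2, -0.33 in cluster 4 and -0.29 in cluster 5. Irgm1, an interferon-induced GTPase, had 94.9 CPM in PyMT and 29.6 CPM in WT, and Iigp1, another, 772 and 942 CPM. No test of these differences was possible with 1 library per genotype.

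Promoters of the 15 higher genes (10 with an entry, 12 windows) held AP-1 in 16.7% and AGGTCA in 0%, and those of the 15 lower genes (12 with an entry, 13 windows) held GATA in 30.8%, against 7.81%, 16.3% and 11.2% of all promoters. These windows are few and the shares are a description.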
